A study of Mus musculus with 4 samples.

Results

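Low-depth barcodes were taken as those with 500 to under 2000 UMIs and at most 20% of UMIs on mt- genes, the genes of the mitochondrial genome, whatever their number of genes. A unique molecular identifier (UMI) marks 1 captured mRNA molecule in this droplet assay, and a barcode marks the droplet it came from, which can hold a cell or only RNA and cell fragments. Of 33589 barcodes in the 4 libraries, 4883 (14.5%) met the rule, and they held 1.07% of all UMIs. Among the barcodes in the files, only the UMI total and the mitochondrial share chose them, so neither is a finding here. How the files came to hold these barcodes was not checked, and its part in the results was not tested. They were compared with the 28083 deeper barcodes of the same libraries, which had 2000 to 50000 UMIs under the same mitochondrial limit.

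Hearts came from C57BL/6J embryos at E10.5, either wild-type (Wt) or homozygous for the Cyp51 I383V allele (Ho), with 2 libraries of each, named Wt1, Wt2, Ho1 and Ho2, and values are given in this order. The labels give CRISPR/Cas9 as the treatment of all 4 libraries, wild-type ones included. Cyp51 is an enzyme of cholesterol synthesis, and the allele changes the protein, so a 3′ mRNA count does not check the genotype. The hearts were digested, and red blood cells were lysed, before capture. How many embryos went into a library is not given in the sources used here, so the spread between libraries may be technical.

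A low UMI count has several known origins in such data. A droplet can hold a small or quiescent cell, a damaged cell that has lost cytoplasm, a bare nucleus, a platelet or its precursor, or RNA floating free in the suspension. Malat1 and Neat1, long noncoding RNAs that stay in the nucleus, are used to tell nuclei from cytoplasm. The mouse genes Gm42418 and AY036118 lie over a copy of the ribosomal RNA repeat, and in single-cell data they commonly read as ribosomal RNA rather than as mRNA. Lars2, which encodes the mitochondrial leucyl-tRNA synthetase, is commonly grouped with them.

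On GRCm38, Gm42418 lies at chr17:39846958-39848788 on the plus strand and AY036118 at chr17:39847113-39848035 on the minus strand. Both are annotated as lincRNA, and Gm26917, another lincRNA, lies just before them at chr17:39843013-39846341 on the plus strand. Lars2 is a protein-coding gene at chr9:123366927-123462666 on the plus strand. All 923 bases of AY036118 are the reverse complement of part of the 1831 bases of Gm42418. These antisense partners lie on opposite strands, and how counts were divided between them was not tested. The start of AY036118 is shown with the bases opposite to it, and so is the longest run of A within Gm42418, 6 bases in capitals, at chr17:39847155-39847184, since the assay primes on A-rich stretches.
AY036118, its first 30 bases, minus strand: atcaacgcaagcttatggcccgcacttact
Gm42418, the same place, plus strand: agtaagtgcgggccataagcttgcgttgat
Gm42418, its longest run of A: gcgtttactttgAAAAAAttagagtgttca

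The wild-type libraries had the larger shares of low-depth barcodes, but the exact test used here cannot pass 0.05 with 2 libraries against 2. There were 1972 in Wt1, 19.1% of its barcodes with an exact binomial 95% interval of 18.4% to 19.9%. Wt2 had 1259 (15.3%, 14.6% to 16.1%), Ho1 had 874 (10.9%, 10.3% to 11.6%) and Ho2 had 778 (11%, 10.3% to 11.8%). These intervals cover counting error only. The mean share was 17.2% ± 2.67 in Wt and 11% ± 0.0683 in Ho (SD, n = 2), and the groups did not overlap. The difference of -6.25 percentage points gave an exact two-sided permutation p of 0.333, the smallest this design allows.

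The files held 109893733 and 117034633 UMIs in the Wt libraries and 127018819 and 107377100 in the Ho libraries, of which the low-depth barcodes took 2091671, 1239256, 835726 and 770290. Their median depth was 975.5 and 874 UMIs in the Wt libraries and 830 and 880.5 in the Ho libraries, against 12075, 15528, 16921 and 16742 UMIs in the deeper barcodes. Of the 4883, 2804 (57.4%) had under 1000 UMIs. Their median number of genes lay between 530.5 in Ho1 and 601 in Wt1, and 1756 had under 500 genes. The study's own limits on UMIs, genes and mitochondrial share keep the other 3127, which are 10.0% of the 31152 barcodes that pass those limits, by library 14.2% and 10.2% in the Wt libraries and 6.56% and 7.60% in the Ho libraries. The 4 libraries share few barcode sequences, since 46 low-depth barcodes (0.942%) and 219 deeper ones (0.780%) carried a sequence found in another library.

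Barcodes on either side of the upper limit had similar values. The 137 with 1900 to under 2000 UMIs gave 0.636% of their UMIs to Gm42418, 0.469% to Malat1 and 1.62% to mt- genes. The 130 with 2000 to under 2100 UMIs gave 0.654%, 0.514% and 2.14%. A further 579 barcodes under 2000 UMIs had over 20% mt- UMIs, 60 and 74 in the Wt libraries and 165 and 280 in the Ho libraries, and were not members. With these counted in, the shares were 19.7%, 16.2%, 13.0% and 15% in the same order, so the gap between the genotypes was smaller.

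Gm42418 took a far larger part of the UMIs of low-depth barcodes than of deeper ones in every library. It stood at 9220 and 19727 counts per 1e6 UMIs outside mt- genes (CPM) in the Wt libraries and 14029 and 8748 in the Ho libraries. In the deeper barcodes it stood at 1553, 1605, 1217 and 974 CPM. Every low-depth value lay far above every deeper value, and the ratio within a library ran from 5.94 to 12.3. AY036118 was 6.46 to 18.2 times higher and Lars2 6.80 to 19.9 times higher. Their low-depth levels were 381, 536, 750 and 152 CPM for AY036118 and 807, 1692, 1674 and 989 CPM for Lars2, in the order Wt1, Wt2, Ho1, Ho2. Since the rule names these 3 genes, the values are a description and carry no test.

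The share of Gm42418 fell with depth without a step, while its number of molecules rose. In Wt2 it was 2.58% of the UMIs of barcodes with 500 to under 1000 UMIs, 1.39% at 1000 to under 2000, 0.549% at 3000 to under 5000 and 0.105% above 20000. The median barcode of Wt2 held 14 Gm42418 UMIs in the shallowest range and 26 in the deepest. The other libraries ran the same way, from 1.29% to 0.102% in Wt1, from 1.77% to 0.0840% in Ho1 and from 1.11% to 0.0730% in Ho2. Total depth rose many times more than the Gm42418 molecules did across these ranges. The excess in low-depth barcodes was therefore one of share, with fewer Gm42418 molecules per barcode than in deep ones.

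**Figure D1:**
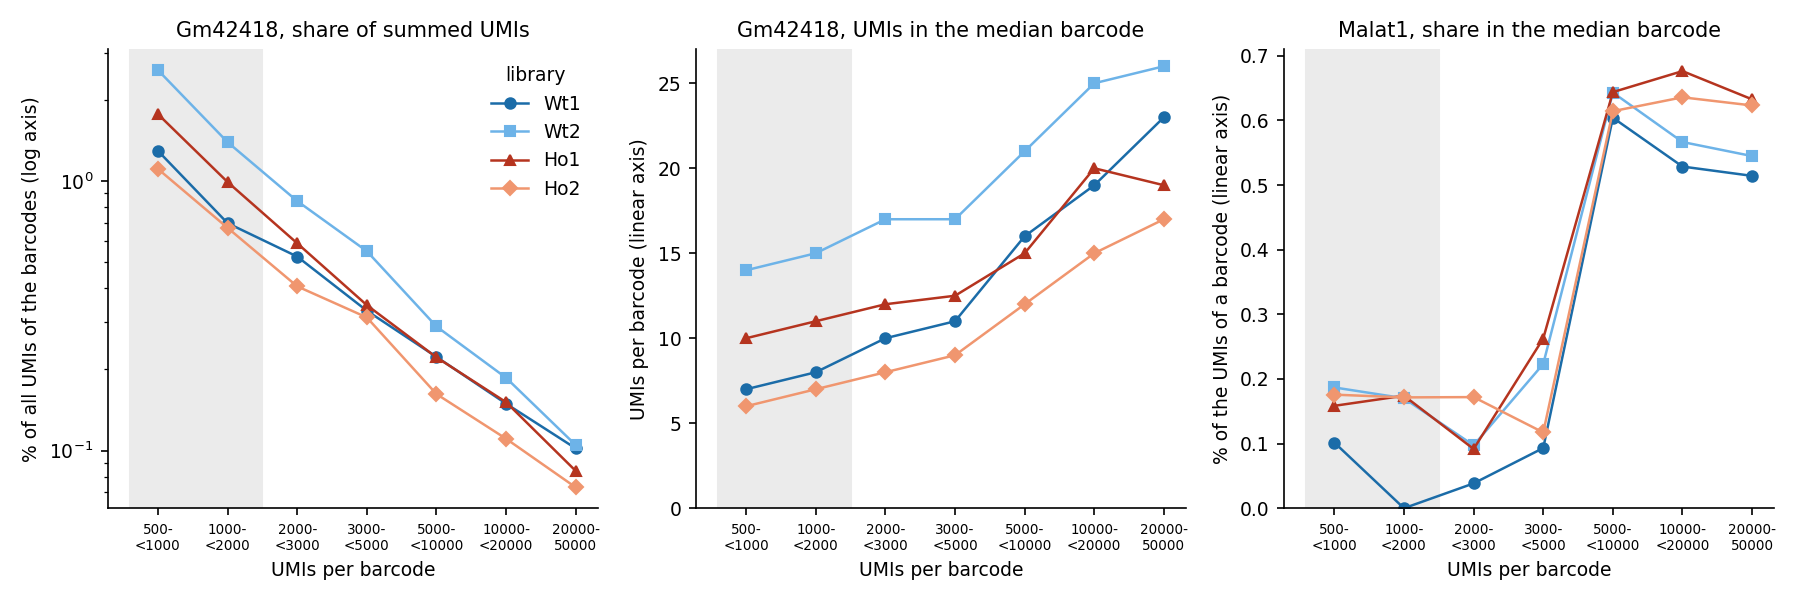
Left, Gm42418 as % of the summed UMIs of all barcodes in 7 ranges of UMIs per barcode (log axis). Middle, Gm42418 UMIs in the median barcode. Right, Malat1 as % of the UMIs of the median barcode (both linear axes). Each line is a library, the grey band holds the low-depth barcodes, and no error is drawn. The Gm42418 share falls along every line while its molecules in the median barcode rise from the shallowest to the deepest range, and the Malat1 share of the median barcode is at most 0.263% under 5000 UMIs and at least 0.514% beyond.

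Single barcodes showed the same. Gm42418 was over 1% of UMIs in 34.2% and 76.9% of low-depth barcodes from the Wt libraries and 59.5% and 29.4% of those from the Ho libraries, against 0.217% to 1.41% of the deeper barcodes. Among the low-depth barcodes of Ho1, 70 (8.01%) had no Gm42418 UMI, the largest such share of the 4 libraries. Across the 4 rRNA-linked genes found in the files (Gm42418, AY036118, Lars2 and Gm26917), the share of UMIs outside mt- genes was 1.06%, 2.27%, 1.72% and 1.05% in low-depth barcodes of Wt1, Wt2, Ho1 and Ho2. In the deeper barcodes it was 0.182%, 0.183%, 0.141% and 0.116%. Gm42418 levels of Wt and Ho low-depth barcodes overlapped.

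Malat1 did not follow Gm42418. Its summed level in low-depth barcodes was 3775 and 7550 CPM in the Wt libraries and 11589 and 8280 in the Ho libraries, and in deeper barcodes 6395, 6593, 7548 and 7589 CPM. It was thus lower than in the deeper barcodes of Wt1, at 0.590 times, and 1.54 times as high in Ho1. Behind these sums the low-depth barcodes were unequal. The Malat1 share of the median low-depth barcode was at most 0.187% of UMIs in each of the 2 low-depth ranges of each library, while the upper 1% of low-depth barcodes exceeded 5.42% and 9.67% in the Wt libraries and 14.3% and 9.66% in the Ho libraries. The same upper 1% of deeper barcodes began between 2.62% and 2.92%.

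At equal depth, low-depth barcodes more often lacked Malat1 altogether. When each barcode was thinned to 500 UMIs outside mt- genes, 61.0% and 42.3% of low-depth barcodes from the Wt libraries and 42.5% and 42.7% of those from the Ho libraries had no Malat1 UMI. Among deeper barcodes the shares were 18.5%, 14.1%, 10.51% and 11.6%. The difference was 33.4 percentage points ± 6.21 (SD over 4 libraries), given with no test, and the 4 low-depth values lay above all deeper ones. Before thinning, 50.4% of low-depth barcodes of Wt1 and 34.1% to 34.3% of the other libraries had none. Thinning left out 41, 59, 39 and 23 low-depth barcodes with under 500 UMIs outside mt- genes. Neat1 gave only 3, 4, 13 and 2 low-depth UMIs in the 4 libraries, and its level was lower than in deeper barcodes in 3 and higher in 1. With so few UMIs the size of any difference is uncertain.

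Genes that mark cardiomyocytes, endothelium and cushions were found in each low-depth sum. Tnnt2, cardiac troponin T of cardiomyocytes, stood at 1264, 2078, 2540 and 1596 CPM in Wt1, Wt2, Ho1 and Ho2, which was 1.02 to 1.58 times the deeper level of the same library. Cdh5, the cadherin of endothelial junctions, stood at 33.6, 92.3, 106 and 49.3 CPM, and Hapln1, a matrix link protein of the endocardial cushions, at 84.1, 161, 254 and 175 CPM. Cdh5 was higher than in deeper barcodes in 2 libraries and lower in 2, and Hapln1 was lower in all 4, at 0.502 to 0.976 times.

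Wt1 stood apart in the pharyngeal gene Crabp1, a retinoic acid binding protein, at 333 CPM against 24.1, 12.4 and 72.0 CPM in Wt2, Ho1 and Ho2. Its deeper barcodes stood apart in the same way, at 283 CPM against 47.9, 15.4 and 47.7 CPM. Epcam, an adhesion molecule of epithelia, was at 55.4, 35.8 and 52.0 CPM in Wt1, Wt2 and Ho2. Ho1 had 0 Epcam UMIs of 835726, which allows a level of up to 3.59 CPM of all UMIs. These genes too are named by the rule and carry no test. In such sums, fewer cells of a type and less RNA per cell cannot be told apart.

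Low-depth barcodes with some cardiomyocyte mRNA were common, and barcodes with none were less common than among deeper ones. After thinning to 500 UMIs, the 14 cardiomyocyte markers together gave no UMI in 31.3%, 6.25%, 2.99% and 10.46% of low-depth barcodes of Wt1, Wt2, Ho1 and Ho2. In the deeper barcodes 60.6%, 39.8%, 28.7% and 39.3% had none. From 5 to 19 marker UMIs were found in 18.5% ± 8.17 of low-depth and 5.62% ± 1.64 of deeper barcodes (SD, n = 4 libraries, higher in 4 of 4, exact sign-flip p = 0.125, the smallest that 4 pairs allow).

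A high content was not more common in low-depth barcodes. At least 20 marker UMIs were found in 16.9%, 33.0%, 37.1% and 21.3% of low-depth and 16.4%, 31.6%, 44.9% and 34.6% of deeper barcodes, and the difference of -4.78 percentage points ± 6.998 gave an exact sign-flip p of 0.5. A class made from at least 3 marker UMIs, with at least 2 times those of any other list, held 54.1% ± 18.9 of low-depth and 38.9% ± 13.4 of deeper barcodes. That difference of 15.1 points ± 9.39 (exact sign-flip p = 0.125, adjusted over 11 classes 0.229) turned to -4.83 points when at least 20 marker UMIs were asked for. Of all thinned low-depth barcodes 25.3% held 2 to 4 such UMIs, near the limit of 3, against 6.12% of deeper ones.

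**Figure D2:**
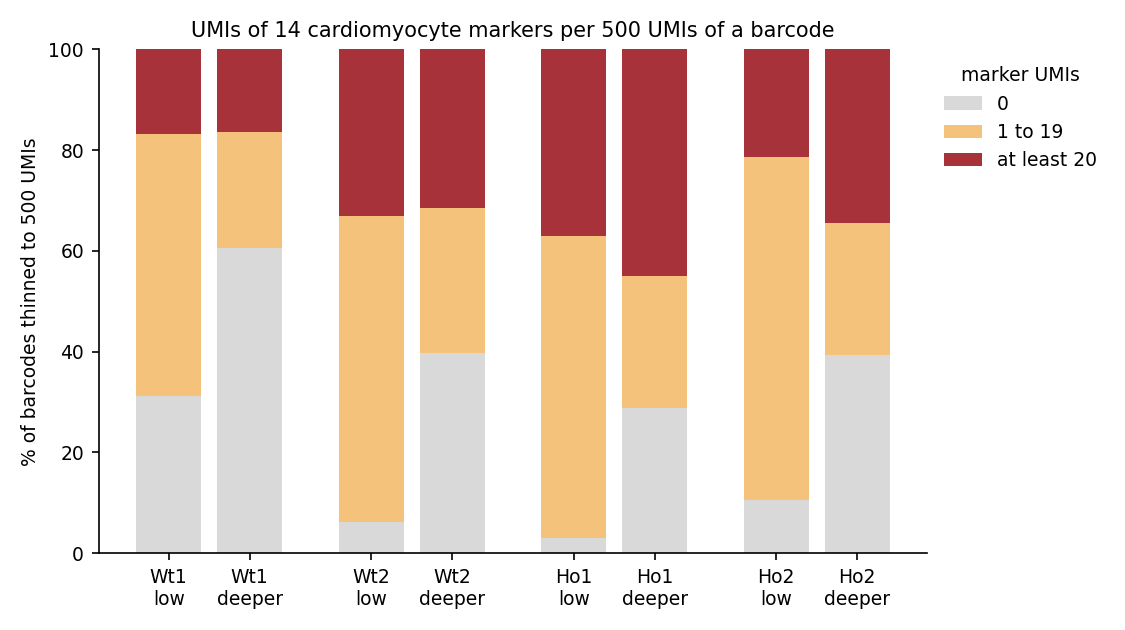
Percent of barcodes (linear axis from 0) with 0, 1 to 19 and at least 20 UMIs of the 14 cardiomyocyte markers, after thinning every barcode to 500 UMIs, for the low-depth and deeper barcodes of each library. The grey part, no marker UMI, is smaller in low-depth barcodes of all 4 libraries, 2.99% to 31.3% against 28.7% to 60.6%, and the middle part is larger.

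Barcodes grouped with other lineages carried cardiomyocyte mRNA as well. In the low-depth barcodes grouped as endothelial-like (below), 17.8% had a Tnnt2 UMI after thinning, with a median depth of 743 UMIs, against 87.6% of the main cardiomyocyte-like group with a median of 1061. The part of free RNA in the marker counts was not tested. Of the other classes by markers, endothelial held 2.48% of low-depth and 6.18% of deeper barcodes and cushion mesenchyme 1.25% and 3.53%, both lower in 4 of 4 libraries. Megakaryocyte held 0.367% and 0.0835%, higher in 4 of 4. Each had the same adjusted p of 0.229.

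Clustered on their own, the low-depth barcodes fell into 10 groups, 8 of which took the name of a lineage from their markers. The largest was pharyngeal mesenchyme-like, 1322 barcodes with Crabp1, Crabp2, Ptn and Nnat among the leading genes, and 955 of them came from Wt1, where they were 48.4% of low-depth barcodes against 10.2%, 2.86% and 27.4% in Wt2, Ho1 and Ho2. Few of its barcodes held many such markers. After thinning, the median barcode had 0 pharyngeal and 1 cardiomyocyte marker UMI, 16.6% had a Crabp1 UMI, and by marker class only 12, 0, 0 and 3 low-depth barcodes were pharyngeal mesenchyme. A cardiomyocyte-like group of 1057 was led by Myl7, Tnni3, Csrp3, Chchd10 and Hspb2. The endothelial-like group had 922 (Emcn, Ramp2, Gngt2, Egfl7, Apoe) and the cushion mesenchyme-like group 461 (Cthrc1, Pdlim3, S100a10, Lgals1, Twist1). Their median barcodes held 2 cardiomyocyte marker UMIs each after thinning and only 1 of their own list. The epithelial-like group of 114 (Epcam, Foxe1, Wfdc2, Spint2, Cldn7) had no barcode in Ho1. The leading genes made the groups and are given as a description.

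A pair of groups stood out by their nuclear RNA. The second cardiomyocyte-like group, cluster 4 with 514 barcodes, was led by Ttn, Ryr2, Rpgrip1, Slc8a1 and Myh7, among them very long sarcomere and calcium-handling genes. Cluster 6 with 359 barcodes stayed unnamed and was led by Gm26917, Auts2, H19, Kmt2a and Limch1. Malat1 took 2.73% of the UMIs of cluster 4 and 2.54% of cluster 6, against 0.153% to 0.381% in the 4 largest other groups. Gm42418 took 2.16% and 3.39%, and mt- genes 4.68% and 8.29%. Ribosomal protein mRNAs, abundant in the cytoplasm, took 10.3% and 11.02%, against 18.8% to 22.8% in those 4 groups.

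By library, the Malat1 shares of both clusters were above those of the 4 largest other groups. In cluster 6, Malat1 was 2.26% and 2.18% in the Wt libraries and 3.27% and 3.21% in the Ho libraries, and ribosomal protein mRNAs ran from 8.99% to 11.8%. In cluster 4 Malat1 was 1.42%, 1.76%, 5.17% and 4.96%, and Gm42418 was 1.90%, 2.60%, 1.96% and 0.959%, the last close to 0.806% in the endothelial-like group of Ho2. The median genomic span of the 10 leading genes was 40.7 kb in cluster 4 and 88.5 kb in cluster 6, and 1.50 to 21.8 kb in the other 8. The pair held 11.8% and 29.9% of low-depth barcodes from the Wt libraries and 19.1% and 12.3% of those from the Ho libraries.

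**Figure D3:**
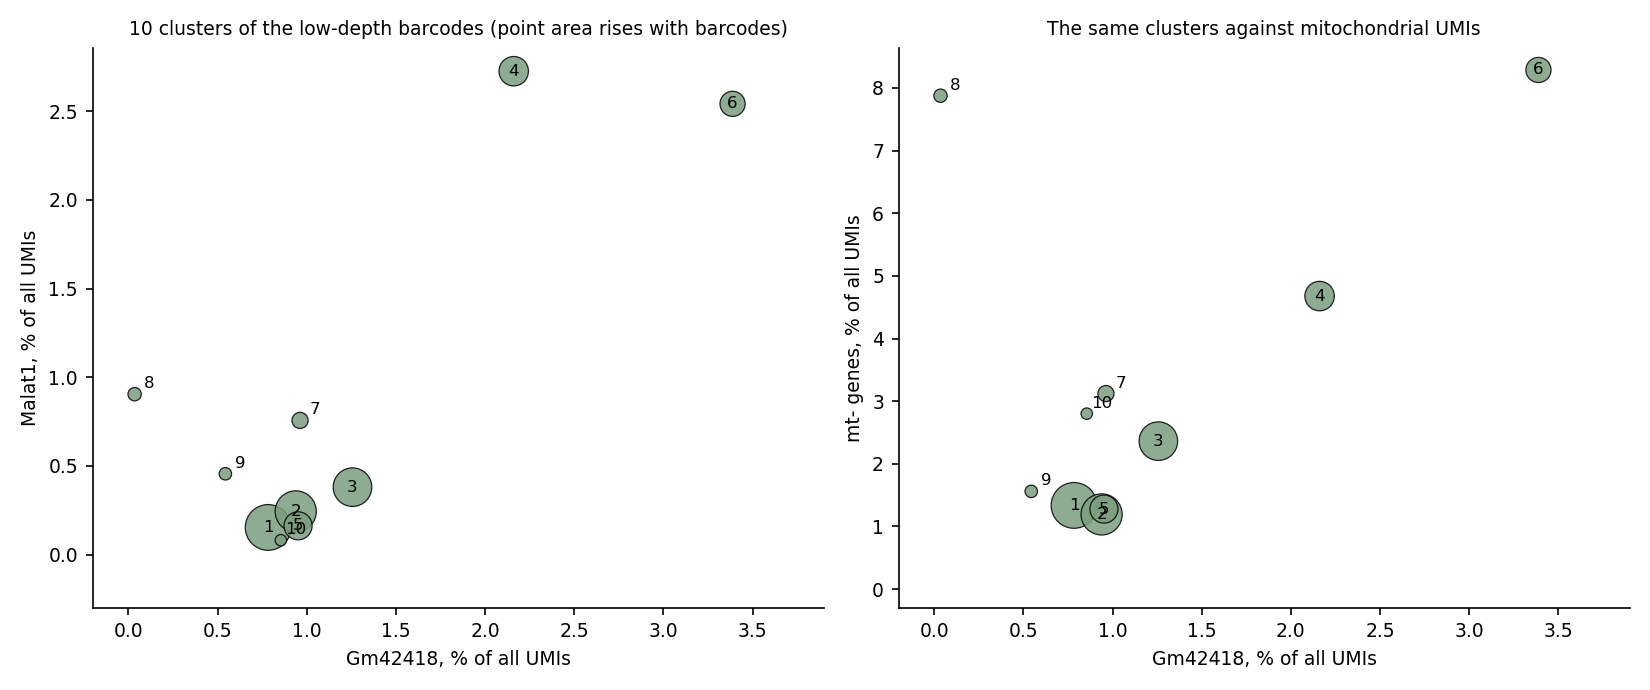
The 10 clusters of low-depth barcodes, numbered, by the share of their summed UMIs on Gm42418 (both horizontal axes), on Malat1 (left) and on mt- genes (right), all in % on linear axes, with point area rising with the number of barcodes. Clusters 4 and 6 lie apart with over 2% on Gm42418 and on Malat1, and cluster 8 has almost no Gm42418 with 7.88% on mt- genes.

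The 3 smallest groups were tied to a library or to blood. Cluster 8, 60 barcodes all from Ho1, stayed unnamed, was led by Pam, Atp5md, Ndufa3, Nexn and Hk2, and had 0.0353% Gm42418 with 7.88% mt- UMIs. The erythroid-like group had 45 barcodes, 43 of them from Ho2, led by the globins Hba-x, Hba-a2, Hbb-bh1, Hbb-y and Hba-a1. The megakaryocyte-like group had 29, with 8 and 8 in the Wt libraries and 10 and 3 in the Ho libraries. It was led by Pf4, a chemokine of platelet granules, and by Treml1, Fcer1g, Gp9 and Clec1b. A group mostly of 1 library may be that library and not a type.

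The summed profiles of both depth classes were correlated. Across the 6470 genes with at least 10 UMIs in each sum, the Pearson correlation of log2 CPM between low-depth and deeper barcodes of a library was 0.982 and 0.979 in the Wt libraries and 0.976 and 0.977 in the Ho libraries. Deeper sums of different libraries correlated at 0.971 to 0.994, and low-depth sums at 0.935 to 0.969. Genes are not independent replicates, so these are descriptions. At 500 UMIs per barcode, the median number of genes was 362, 367, 362 and 368 in low-depth barcodes and 372, 377, 368 and 374 in deeper ones. The difference was -8 genes ± 2.31 (lower in 4 of 4, exact sign-flip p = 0.125).

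To find which other genes differed, UMIs were summed per library and depth class and compared with edgeR's quasi-likelihood test, the library as a block and Benjamini-Hochberg adjustment. Of 15364 genes tested, 587 (3.82%) differed at an adjusted p under 0.05, 147 (0.957%) higher and 440 (2.86%) lower in low-depth barcodes. This fit took the spread of each gene wholly from a trend over all genes, so its p-values do not reflect a gene's own scatter. limma-voom, which keeps part of it, called 267 genes, 193 higher (1.26%) and 74 lower (0.482%), of which 118 were among the 587. The balance of higher and lower genes thus depends on the method, and with RLE scaling in edgeR it was 202 higher to 273 lower. Below, the scatter of a gene is given as the SD of its log2 ratio over the 4 libraries, and the adjusted p of limma-voom beside it.

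Besides the genes of the rule, Pf4 and Gm26917 rose most of the 12 genes named. Pf4, at chr5:90772435-90773383, stood at 133, 511, 588 and 221 CPM in low-depth barcodes of Wt1, Wt2, Ho1 and Ho2 and at 10.0, 65.4, 94.9 and 28.1 CPM in deeper ones, a log2 fold change of 2.98 (SD 0.464, limma-voom adjusted p = 9.36e-05). Of its 1529 low-depth UMIs, 95.7% came from the 29 barcodes of the megakaryocyte-like group. Gm26917 stood at 218, 785, 787 and 646 CPM against 87.7, 74.5, 67.9 and 79.2 CPM, a log2 fold change of 2.78 (SD 1.02, limma-voom adjusted p = 0.00742). Cluster 6, of which it was a leading gene, held 83.1% of its low-depth UMIs. Without clusters 4 and 6 in the low-depth sums the change was -0.56, and a drop follows from leaving out a group that the gene leads.

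A few other genes rose in all 4 libraries. Rpgrip1 (chr14:52110704-52163546), a gene of the photoreceptor cilium, stood at 118, 299, 191 and 121 CPM against 54.4, 45.4, 39.8 and 44.6 CPM, a log2 fold change of 1.84 (SD 0.735, limma-voom adjusted p = 0.0131), with 63.5% of its UMIs in cluster 4. The histone genes Hist1h4d (1.04, SD 0.205, limma-voom adjusted p = 0.00832) and Hist1h1e (0.84, SD 0.200, limma-voom adjusted p = 0.00832) had smaller SDs over the libraries than the other named genes that rose. H19, an imprinted noncoding RNA, rose by 0.72 (SD 0.315) and Sap30l, a corepressor subunit, by 0.56 (SD 0.234), with limma-voom adjusted p-values of 0.0101 and 0.0419. Slc24a5 (0.83) and Cited1 (0.82) passed in edgeR only, with limma-voom adjusted p-values of 0.0974 and 0.0769. Cluster 6 held 44.9% of the low-depth UMIs of H19 and cluster 4 held 55.5% of those of Slc24a5. The change of Slc24a5 was -0.06 without both clusters, and a drop follows since it was a leading gene of cluster 4.

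Early response genes headed the genes that fell. Ier3, an immediate early gene, stood at 21.9, 49.9, 45.8 and 36.0 CPM against 50.7, 85.4, 96.9 and 63.8 CPM, a log2 fold change of -1.05 (SD 0.208, limma-voom adjusted p = 0.0297). Klf6, an early response transcription factor, stood at 49.1, 109, 121 and 139 CPM against 143, 208, 195 and 209 CPM, a change of -1.01 (SD 0.427, limma-voom adjusted p = 0.0219). No Klf6 value of a low-depth sum reached a deeper one. The stress genes Atf3 (-0.88) and Gadd45g (-0.86), the flow-responsive factor Klf2 (-0.73), the matrix binder Igfbp7 (-0.91), Pdlim3 (-0.86) and Tagln2 (-0.74) of the actin cytoskeleton and Bambi (-0.77), a pseudoreceptor of TGF-beta signalling, were lower in 4 of 4 libraries and passed in both tools, with limma-voom adjusted p-values from 0.00832 to 0.0419. Ccn2 (-0.82), Atcayos (-0.77) and Fos (-0.73) passed in edgeR only.

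**Figure D4:**
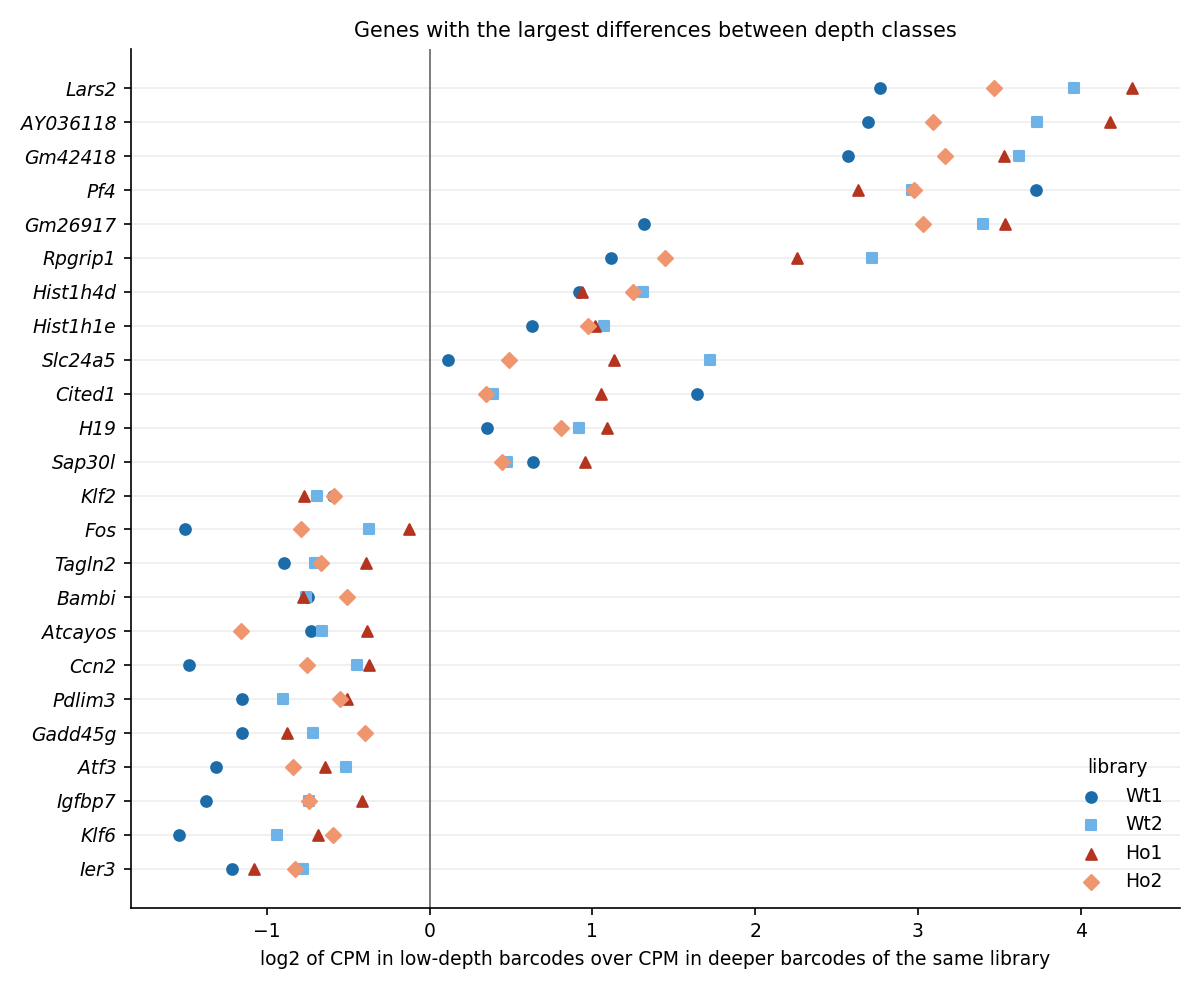
The 12 genes with the largest rise and the 12 with the largest fall among genes called by edgeR with the same direction in 4 of 4 libraries and a mean of at least 50 CPM. Each point is 1 library, at the log2 of its CPM in low-depth barcodes over that in deeper barcodes (linear axis in log2 units, zero line drawn). All points of a gene lie on 1 side of zero by the choice of genes, and Wt1 lies nearest to zero for Lars2, Gm42418 and Gm26917.

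Gene lists were described by counts called in edgeR, beside a median log2 fold change of -0.05 over all genes tested, 44.0% of which were above 0. Summed levels of lists and their ratios are of all UMIs. The 6 megakaryocyte genes, among them genes of platelet receptors and granule proteins, were all higher (median 2.53). limma-voom called 4 of them and DESeq2 1, where DESeq2 called 0.801% of all genes higher and 1.36% lower and gave no adjusted p for 10723. They had summed levels 6.00 to 10.9 times those of deeper barcodes. Their low-depth totals were 313, 662, 532 and 179 UMIs by library, of which Pf4 was the most abundant gene. Ppbp, another platelet chemokine, had only 9, 5, 2 and 1 low-depth UMIs, too few for a fold in each library, and all 17 lay in the megakaryocyte-like group.

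Of 63 replication histone genes tested, whose mRNAs mostly lack a poly(A) tail, 11 were higher and none lower (median 0.25). Their summed level was 1.15 to 1.43 times that of deeper barcodes and was higher in 4 of 4 libraries. Examples were Hist1h2ab (1.23), Hist1h3c (0.90) and Hist2h2bb (0.82). limma-voom called 4 of them, all higher.

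Immediate early and heat shock genes are known to rise quickly in stressed or dissociated cells. Of 20 tested, 12 fell, none rose and the other 8 did not pass in edgeR (median -0.46), and limma-voom called 5 lower and 1 higher. Besides Ier3, Klf6, Atf3 and Fos these were Hspa1b (-1.15), Hspa1a (-0.64), Dusp1 (-0.62), Dnajb1 (-0.48), Ier2 (-0.45), Hspd1 (-0.35), Jun (-0.34) and Hspe1 (-0.30). Hspa8, the constitutive chaperone and the most abundant member, stood at 2093 CPM ± 284 against 1672 ± 313 (SD, n = 4), a change of 0.26 that did not pass in edgeR (adjusted p = 0.0896).

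Of 75 nuclear-encoded subunits of oxidative phosphorylation tested, 26 fell, none rose and the other 49 did not pass in edgeR (median -0.22), and their summed level was 0.839 to 0.934 times that of deeper barcodes. Ndufb9 (-0.53), Cox6a1 (-0.54) and Atp5g2 (-0.44) were examples, and Cox7c (-0.37) was the most abundant. limma-voom called 9 of them lower. Against deeper barcodes of 2000 to 20000 UMIs only, 4 were lower and 3 higher (median 0.01). In that comparison edgeR called 2.25% of 14465 genes higher and 3.46% lower. Without clusters 4 and 6 in the low-depth sums, but with the deeper sums whole, 3 of the list were lower and 11 higher. There, 5.25% of 15252 genes were higher and 8.35% lower.

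Lineage lists moved with the choice of comparison as well. Of the 13 cardiomyocyte genes other than Tnnt2, 5 were lower and none higher in edgeR (median -0.13 over all 14), and limma-voom called none. Myh7 (-0.53), a myosin heavy chain, and Actc1 (-0.41), cardiac actin, were the lowest. Against deeper barcodes of 2000 to 20000 UMIs, 12 of the 14, Tnnt2 among them, were higher and none lower, beside the 2.25% and 3.46% of all genes. Of 10 erythroid genes, 4 were lower and 1 higher (median -0.51), but 6 of the 7 then tested were higher in that same comparison. Without the clusters mostly of 1 library, where 1.02% of all genes were higher and 3.35% lower, 6 erythroid genes were lower (median -2.30), and limma-voom called none in the full comparison. Of 6 epicardial genes 3 were lower, Upk3b (-1.004), Tbx18 (-0.96) and Tcf21 (-0.50), and limma-voom called none of them.

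The other lists had few calls in this fit, but some had many under other settings. Abundant cytoplasmic mRNAs had 5 of 18 higher, Ybx1 (0.51), Tuba1b (0.47), Actb (0.38), Tuba1a (0.37) and Hnrnpa1 (0.30), and none lower. Ribosomal protein genes had 3 higher and 1 lower of 79, led by Rpl8 (0.38). Over 22 settings of the comparison they ran from 0 to 50 higher and from 0 to 16 lower. Abundant cytoplasmic mRNAs ran from 0 to 10 higher and 0 to 3 lower, and G2/M genes from 0 to 13 higher and 0 to 2 lower. Cushion mesenchyme genes ran from 0 to 8 lower, with 0 higher. Endothelial genes had 1 of 13 lower, Ramp2 (-0.58), and cushion mesenchyme genes other than Hapln1 had 1 of 9 lower, Cthrc1 (-0.71). Genes of the G2/M phase had 2 higher of 18 (Ccnb1, Aurka), glycolysis had Gapdh lower, cholesterol synthesis had Acat2 among its calls, higher, the integrated stress response had Ppp1r15a lower, and pharyngeal mesenchyme had Foxf1 higher. Of 10 macrophage genes, Fcer1g alone was higher, which was also found in 82.8% of barcodes of the megakaryocyte-like group, and the median of the list was -0.26. limma-voom called no gene of the G2/M phase, cholesterol synthesis, integrated stress response, pharyngeal and macrophage lists. In the p53 target, S phase, hedgehog response, nuclear noncoding, epithelial, neural and sex-linked lists edgeR called no gene outside the rule.

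**Figure D5:**
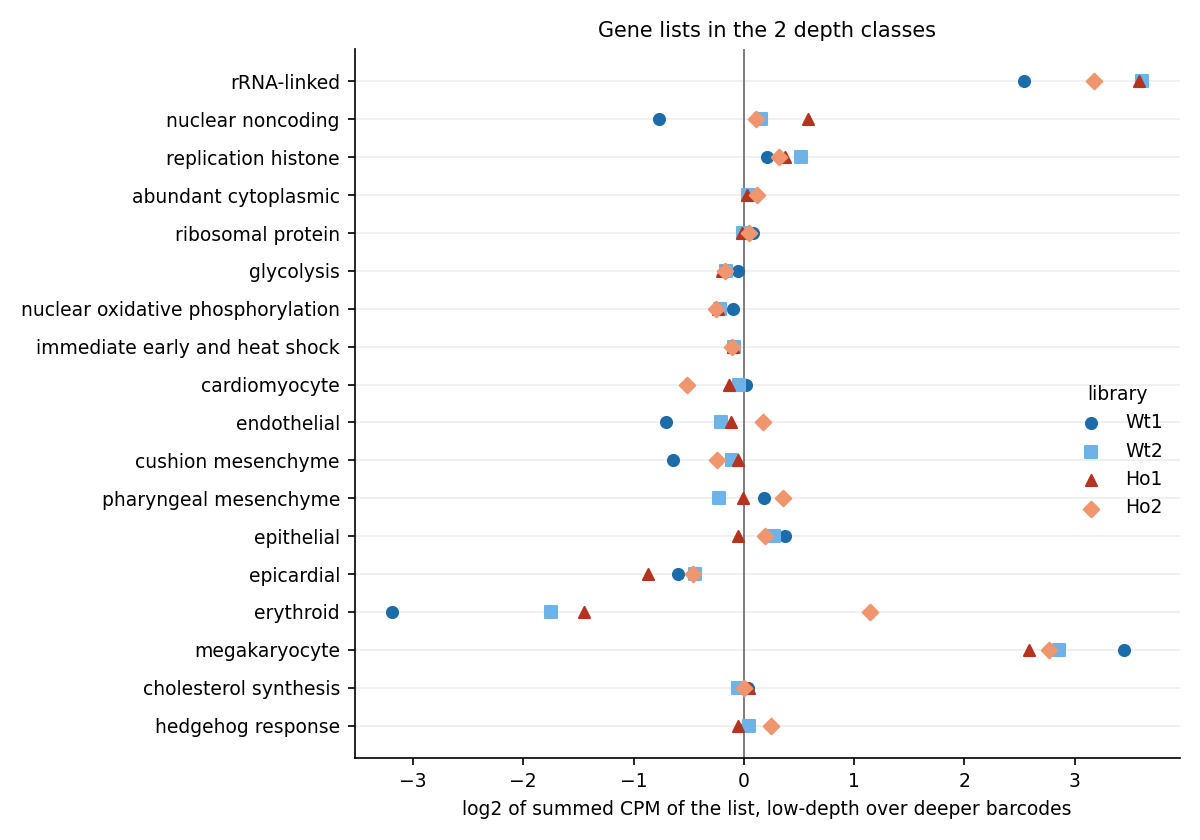
The log2 of the summed CPM (of all UMIs) of each of 18 gene lists in low-depth barcodes over that in deeper barcodes of the same library (linear axis in log2 units, zero line drawn), with 1 point per library. The rRNA-linked and megakaryocyte lists lie above zero in 4 of 4 libraries, at ratios of 5.81 or more, the oxidative phosphorylation list lies slightly below zero in all, and the erythroid list is above zero in Ho2 only.

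Leaving out the clusters rich in Malat1 changed these results. With clusters 4 and 6 left out of the low-depth sums and the deeper sums kept whole, 2074 genes differed in edgeR. Of these, 801 were higher (5.25%) and 1273 lower (8.35%), and 370 were among the 587. The change of Malat1 was then -1.22, a fall that follows from leaving out low-depth clusters by their Malat1. That of Neat1 was -1.82, on few low-depth UMIs. Of the immediate early and heat shock genes 13 were then lower and 1 higher, and all 6 megakaryocyte genes stayed higher. Without Wt2 the count of genes called was 204, and without Ho2 it was 325.

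The comparison was repeated within barcodes that carried cardiomyocyte markers, 2333 low-depth and 10665 deeper ones by the limit of at least 3 marker UMIs. This was meant to hold the lineage fixed, but genes of other lineages still differed (below). In edgeR 1282 of 12836 genes (9.99%) differed, 526 higher (4.1%) and 756 lower (5.89%), and limma-voom called 502 higher and 251 lower. The rule genes AY036118 (3.97), Lars2 (3.83) and Gm42418 (3.40) again led, followed by Rpgrip1 (2.75), Gm26917 (2.63) and Slc24a5 (1.75). The largest falls were in Rspo3 (-1.27), a secreted Wnt agonist, Ramp1 (-1.20), Atcayos (-1.20), the basement membrane gene Nid2 (-1.20), Gadd45g (-1.14) and the sarcomere gene Nexn (-1.07). limma-voom also called the 9 of these that are not in the rule, with adjusted p-values from 0.000135 for Gm26917 to 0.0416 for Rspo3.

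Several lists differed in these barcodes. Oxidative phosphorylation had 57 of 75 genes lower and none higher (median -0.44), immediate early and heat shock 13 of 20 lower and 1 higher, and glycolysis 7 of 15 lower. The markers that made the class had 11 of 14 cardiomyocyte genes lower, while 11 of 13 endothelial and 6 of 6 erythroid genes were higher. Since the limit was set on these markers, their counts are a description. When at least 20 marker UMIs were asked for, 331 genes differed, 126 higher (1.04%) and 205 lower (1.69%), and oxidative phosphorylation had 18 of 74 lower, glycolysis none of 15, cardiomyocyte 2 lower and 1 higher, endothelial 3 of 12 higher and erythroid 5 of 5 higher. The size of these differences thus moved with the marker limit.

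Between the genotypes edgeR called a pair of globin genes in the low-depth barcodes. Ho1 also stood apart from the other 3 libraries in sex-linked genes, with 202 low-depth UMIs of Xist, which silences an X chromosome in females, against 0 or 1. The Y-linked genes Ddx3y, Eif2s3y, Kdm5d and Uty were at 0 UMIs in both depth classes of Ho1 and were found in both classes of the other 3. The part of this in the genotype comparisons was not tested. In edgeR 2 of 8111 genes (0.0247%) were called, both higher in Ho, and 319 had an unadjusted p under 0.05. Robust edgeR and DESeq2 called no gene. Hba-a1 (chr11:32283511-32284465), an alpha globin, had 10 and 29 UMIs in the Wt libraries and 156 and 187 in the Ho libraries, a log2 fold change of 4.08 ± 0.446 (SE, edgeR adjusted p = 0.00394, limma-voom adjusted p = 0.00128). Hba-a2 had 3, 10, 39 and 114 UMIs (4.53 ± 0.614, edgeR adjusted p = 0.0210, limma-voom adjusted p = 0.416). Of the Hba-a1 UMIs 51.3% lay in the erythroid-like group, almost all of it from Ho2, and 37.7% in the megakaryocyte-like group. The Ho libraries differed in this. In Ho2, 179 of 187 UMIs came from the 43 barcodes of the erythroid-like group. In Ho1, 131 of 156 came from the 10 barcodes of the megakaryocyte-like group. Without the clusters mostly of 1 library no gene was called, and 269 had an unadjusted p under 0.05. In the deeper barcodes edgeR called none of 17145, with 805 at an unadjusted p under 0.05.

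The genes of the study's question were read at shallow depth here. Cyp51 stood at 62.2 and 69.0 CPM in Wt1 and Wt2 and at 56.9 and 65.3 CPM in Ho1 and Ho2, and the groups overlapped (log2 fold change -0.11 ± 0.249, edgeR adjusted p = 0.997). Ptch1, the hedgehog receptor and target, stood at 44.7, 26.6, 23.5 and 45.3 CPM in the same order (-0.12 ± 0.373, edgeR adjusted p = 0.997). Gata4, a cardiac transcription factor, stood at 26.3, 49.9, 86.7 and 42.6 CPM (0.81 ± 0.365, edgeR adjusted p = 0.997). Without Wt2, which leaves Wt1 alone against the Ho libraries, the change was 1.24. Gli1, the hedgehog effector, had 11, 0, 0 and 3 UMIs and was not tested.

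Whether the step between depth classes itself differed between the genotypes was tested as an interaction over the 8 sums. edgeR called 9 of 16266 genes (0.0553%), 6 higher (0.0369%) and 3 lower (0.0184%) in Ho, with 562 at an unadjusted p under 0.05, and limma-voom called none, with 936. The 5 globin genes among them were higher in low-depth than in deeper barcodes in Ho2 alone and lower in Wt1, Wt2 and Ho1. They and the other 4 genes are given with their values in the closing section.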

How the data were processed

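Hearts of E10.5 mouse embryos were profiled with the 10x 3′ v3.1 assay in 4 libraries, 2 Wt and 2 Ho. The deposited files hold UMI counts per gene and barcode, which the authors made with Cell Ranger 6.1.1 on mm10 (GRCm38) and analysed in Seurat 4.1.0. The files begin at 500 UMIs per barcode. The study's later limits (at most 20% mt- UMIs, 500 to 50000 UMIs, 500 to 6000 genes, DoubletFinder) were not applied to the low-depth barcodes beyond the rule, and doublets were not called here. The members, gene lists and tests were chosen with earlier results of these data known.

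Counts were summed per library and depth class, without the 13 mt- genes, and tested with edgeR 4.0.16 (quasi-likelihood, TMM, filterByExpr, library as block for depth class) in R 4.3.3, at a Benjamini-Hochberg adjusted p of 0.05. In all main fits but Ho against Wt, edgeR took the spread of each gene wholly from a trend over all genes. For this reason limma-voom (limma 3.58.1) and robust edgeR were added after seeing the data, and DESeq2 1.42.0 was an alternative. The tests were checked on simulated data. Named genes were the 12 largest log2 changes each way (6 within cardiomyocyte-marker barcodes) among genes called with the same direction in 4 of 4 libraries and a mean of at least 50 CPM. The genes of the rule were given with no test of their own, and where they stand in a list its counts are a description. Cyp51, Ptch1, Gata4 and Gli1 and the genes called between genotypes or in the interaction were named too.

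Single barcodes were compared after thinning to 500 UMIs outside mt- genes. A marker class needed at least 3 UMIs of a list and at least 2 times those of the next of 10 lists. Measures per library were tested by exact two-sided permutation or sign-flip tests in scipy 1.17.1, whose smallest p is 0.333 for 2 against 2 and 0.125 for 4 pairs. Clusters came from scanpy 1.11.5 (2000 variable genes, 20 components, 15 neighbours, Leiden resolution 0.5). Shares of Gm42418, Malat1 and ribosomal protein mRNAs in depth ranges and clusters are of all UMIs, and CPM values are of UMIs outside mt- genes unless stated. Positions are those of GENCODE M21, matched for 99.6% of gene identifiers. Alternatives covered depth limits, filters, scaling, tools, blocks and each library left out. A few genes are not reported here.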

Additional observations from a re-analysis of the deposited data

Results flagged for a closer look

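The step from deeper to low-depth barcodes differed between Ho and Wt in 9 genes by the edgeR interaction test, and limma-voom called none of them (adjusted p from 0.686 to 0.933). Of these, 5 were globins, with log2 interactions of 3.11 for Hba-a2 (edgeR adjusted p = 1.34e-13), 2.81 for Hba-a1 (5.82e-21), 2.69 for Hbb-bh1 (1.87e-07), 2.26 for Hba-x (4.39e-16) and 1.68 for Hbb-y (1.31e-11). Hba-x stood at 8.75, 53.2, 121 and 492 CPM in low-depth barcodes of Wt1, Wt2, Ho1 and Ho2 and at 120, 334, 804 and 259 CPM in deeper ones, so Ho2 alone was higher at low depth. The erythroid-like group, with 43 of 45 barcodes from Ho2, held 72.5% of its low-depth UMIs.

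Gm26917 had an interaction of 0.80 (edgeR adjusted p = 0.0383), which was -0.14 without Wt1. The other 3 genes were lower. Gal, a neuropeptide gene, had -2.13 (edgeR adjusted p = 0.00289) from 8.75, 25.8, 13.6 and 5.33 CPM in low-depth barcodes of Wt1, Wt2, Ho1 and Ho2 against 6.30, 11.5, 25.0 and 17.4 CPM in deeper ones. Stmn2, a neuronal gene, had -1.61 (edgeR adjusted p = 0.0262) from 27.7, 64.0, 9.90 and 11.99 CPM against 34.2, 36.2, 24.3 and 27.04 CPM. Myl2, the ventricular myosin light chain, had -0.99 (edgeR adjusted p = 0.000216) from 813, 1544, 1650 and 720 CPM against 512, 1261, 1807 and 1179 CPM. The part of a single library in these differences was tested only by leaving each out, which gave 1 gene called without Ho2 and 14 without Wt2.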

How the results depend on the processing

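The count of 587 genes between depth classes was 267 with limma-voom, 332 with DESeq2, 6 without the library block, 258 at 1000 to under 2000 UMIs, 369 with deeper sums thinned to the low-depth total, 2074 without the clusters over 2% Malat1, and 204 (without Wt2) to 604 with a library left out. Ho against Wt, 2 genes, gave 1 with limma-voom, 0 with robust edgeR (308 at an unadjusted p under 0.05) and with DESeq2 (46), 20 without a filter, 1 with at least 10 UMIs in each sum, 4 in barcodes of at least 500 genes and 4 under 500, 1 at 1000 to under 2000 UMIs, 0 in deeper barcodes (805), 0 without the clusters mostly of 1 library (269) and 0 without those over 2% Malat1 (274). With a library left out it ran from 6 to 135 (without Wt2), in fits that take a lone library to vary like the other group. The numbers of the replicates do not pair the libraries (r = -0.336 over 8111 genes), the replicate block gave 12 genes, and crossed numbers, added after seeing the data, gave 68.

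The interaction, 9 genes, gave 0 with limma-voom (936 at an unadjusted p under 0.05) and DESeq2 (190), 2 with robust edgeR, 2 with at least 10 UMIs in each sum, and 1 to 14 with a library left out. Within cardiomyocyte-marker barcodes, 1282 genes became 753 with limma-voom, 750 with DESeq2, 724 with at least 5 and 331 with at least 20 marker UMIs, and 563 (without Wt2) to 1242 with a library left out. The marker class difference turned to -4.83 points with at least 20 marker UMIs, and resolution 1 gave 17 clusters.

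Of single genes, Gm26917 (-0.56) and Slc24a5 (-0.0645) reversed without the clusters over 2% Malat1, and each was a leading gene of a cluster left out. Cyp51 became 0.069 under 500 genes and 0.38 without those clusters, Ptch1 became 0.34 without them, 0.39 without Wt1 0.27 without Ho1 and -0.66 without Ho2, and the Gm26917 interaction became -0.14 without Wt1 and 1.82 without Wt2. The cause was not tested for any of these. The share difference between genotypes ran from -8.13 to -4.36 points with a library left out, and the rRNA-linked difference of 1.37 points from 1.13 to 1.54. With 770290 to 2091671 low-depth UMIs a library, 3 counts stand for 1.43 to 3.89 CPM of all UMIs, and calls near this level rest on few UMIs.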
